A study of Homo sapiens with 9 samples.

Results

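The mitotic genes described here are 58 genes whose products build the spindle, hold the kinetochores together and on microtubules, time anaphase, divide the cytoplasm or compact chromosomes. They were taken from the count table by symbol from a fixed list, and all 58 were found among its 26475 genes and had enough reads to be among the 13784 genes tested. The list did not use any measured value, but it was drawn up with earlier results of these libraries known.

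In dividing cells these genes are silent early in the cycle and are switched on late, in G2 and mitosis, by the MuvB complex together with MYBL2 and then FOXM1. Their promoters typically carry CCAAT boxes, bound by NF-Y, and a cell cycle homology region, bound by MuvB. In resting cells, or where CDKN1A (the CDK inhibitor p21) accumulates, the same site is held by the repressive DREAM complex. For genes of this kind the RNA level in a bulk sample therefore depends on how many cells are in G2 and mitosis. Here fewer cells in these phases and less RNA per cell cannot be told apart.

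The cells were hTERT-RPE1, an established telomerase-immortalised line of human retinal pigment epithelium. Control cells carried the empty pLKO vector and grew on glass coated with fibronectin. The sh_PIP4K2B cells carried a hairpin against PIP4K2B, a kinase that phosphorylates the lipid PtdIns5P, and grew on the same glass. The Soft cells carried the empty vector and grew on a fibronectin-coated hydrogel of 2.3 kPa. All were collected 24 h after seeding, with 3 libraries per condition. Each sh_PIP4K2B library came from a different hairpin (#1, #2 and #3), so its spread contains differences between hairpins. No label says that libraries of a condition came from separate cultures, and p-values therefore measure only the spread between these libraries.

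Library totals lay between 19217336 and 24020796 estimated counts. PIP4K2B itself, the check of the knockdown, was at 123, 124 and 119.5 CPM in Control (CPM gives the counts of a gene relative to the TMM-scaled total of its library), at 48.4, 40.9 and 36.6 CPM with hairpins #1, #2 and #3, and at 119, 122 and 127 CPM in Soft. Its log2 fold change was -1.54 (SE 0.12, edgeR adjusted p = 3.8e-04) with the hairpins and 0.00 on the gel. The defining markers of mature pigment epithelium RPE65, TYR, DCT and TTR were at or near 0 in every library, whereas MITF, OTX2 and the epithelial keratins KRT8 and KRT18 were expressed. Of 9 markers of other cell types, 7 stayed under 1 CPM in every library. The exceptions were CD68 and PECAM1, and the summed level of the 9 was 64.4 to 69.0 CPM in Control libraries, 43.2 to 81.2 CPM in sh_PIP4K2B and 149 to 153 CPM in Soft; their part in the results was not tested.

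With the hairpins the whole set of mitotic genes was lower. Every one of the 58 had all 3 sh_PIP4K2B libraries below all 3 Control libraries, which held for 16.7% of all genes tested. Of the 58, 44 fell past an adjusted p of 0.01 in edgeR's quasi-likelihood test, against a background of 2.77% of all genes. No member rose, with 0 higher at an unadjusted p under 0.05 in edgeR and 0 in DESeq2, where 2.76% of all genes rose in edgeR. The median log2 fold change of the members was -0.90, and that of all genes tested was 0.05. KIF20A was the lowest at -1.19 and BUB3 the least changed at -0.26.

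On the gel the same genes moved apart from each other. Here 22 of 58 fell in Soft against Control, with 14.8% of all genes lower. No member rose in edgeR, whereas 15.8% of all genes did. At an unadjusted p under 0.05 NEK2, PTTG1 and KIF20A were higher, and DESeq2 called 1 member higher and limma voom 3. The median log2 fold change was -0.39, with all genes at 0.01, and members ran from CENPK at -1.33 to KIF20A at 0.64. All 3 Soft libraries lay below all 3 Control libraries for 42 members (39.1% of all genes) and above them for 5 (40.4% of all genes), namely NEK2, PTTG1, KIF20A, PRC1 and FOXM1.

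The direct test of Soft against sh_PIP4K2B asks which mitotic genes the gel left higher than the hairpins did. Of the 58, 30 were higher in Soft, against 14.5% of all genes. Only CENPK, BUB3 and SMC2 passed the test as lower in Soft than in sh_PIP4K2B, against 15.5% of all genes. They numbered 0 without Soft replicate 1 or 2, 1 without Soft replicate 3, 5 without hairpin #1 or #3, and 0 when only the 2 conditions were fitted (8 at an unadjusted p under 0.05, edgeR). After an offset for GC content and transcript length in each library, added after seeing the data and called the offset here, none of the 3 passed, with CENPK at -0.02 (edgeR adjusted p = 0.93), BUB3 at -0.18 (edgeR adjusted p = 0.21) and SMC2 turned to 0.16 (edgeR adjusted p = 0.19), and 0 members were lower at an unadjusted p under 0.05 (edgeR). All 3 Soft libraries were above all 3 sh_PIP4K2B libraries for 38 members, and for 27.3% of all genes. The median difference was 0.52 on the log2 scale, and KIF20A had the highest at 1.83. The comparisons against Control share their Control libraries, and this direct test shares libraries with each of them.

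**Figure D1:**
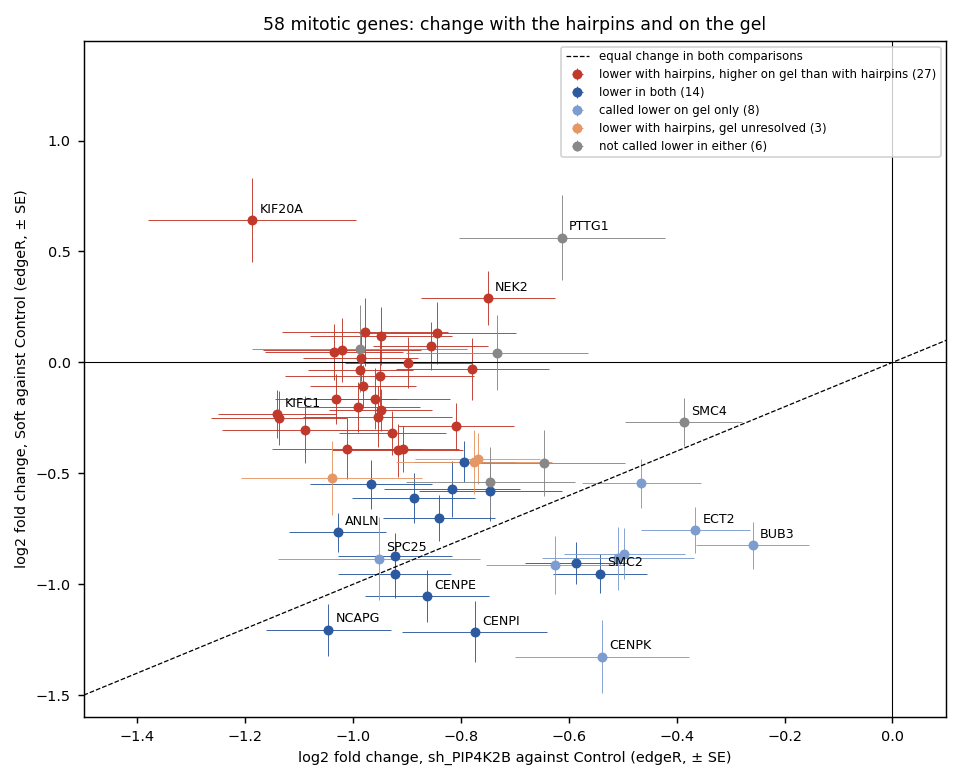
Each point is 1 of the 58 mitotic genes, with its log2 fold change in sh_PIP4K2B against Control on the horizontal axis and in Soft against Control on the vertical axis (edgeR, bars ± SE), coloured by its calls at an adjusted p of 0.01. All points lie left of 0, while on the vertical axis they spread from CENPK at -1.33 to KIF20A at 0.64, and points on the dashed line changed equally in both comparisons.

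Read together, the calls sort the members into groups. Gel-spared genes are those lower with the hairpins, not called lower on the gel, and higher on the gel than with the hairpins. This rule uses the sh_PIP4K2B libraries in both of its tests. It took 27 of the 58 members, and 0.987% of all genes. These were AURKB, BIRC5, BUB1, BUB1B, CENPA, CENPF, CENPM, CKAP2L, DLGAP5, FOXM1, GTSE1, INCENP, KIF20A, KIF2C, KIF4A, KIFC1, MKI67, NCAPH, NDC80, NEK2, PLK1, PRC1, RACGAP1, SPC24, TOP2A, TPX2 and UBE2C. Their median level was 51.4% of the Control mean with the hairpins and 92.9% on the gel. Not called lower is not the same as unchanged, since 14 of the 27 still had all Soft libraries below all Control libraries, and CKAP2L was lowest at 76.0% of Control.

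Another 14 members fell in both conditions (24.1%, against 1.52% of all genes). They were ANLN, ASPM, AURKA, CENPE, CENPI, CENPN, KIF11, KIF23, NCAPG, NUF2, SHCBP1, SMC2, TTK and ZWINT. Their medians were 55.4% of Control with the hairpins and 56.7% on the gel. A further 8 (BUB3, CENPK, ECT2, KIF18A, KIF20B, KNTC1, MAD2L1 and SPC25) fell on the gel and had adjusted p-values between 0.010 and 0.12 (edgeR) with the hairpins. These 8 are 13.8% of the members, close to the 13.3% of all genes called lower on the gel only. CDCA8, ESPL1 and KIF14 fell with the hairpins and passed neither other test (5.17%, against 0.268% of all genes). CDC20, CKAP2, HMMR, NCAPD2, PTTG1 and SMC4 were not called lower in either condition, with hairpin p-values between 0.011 and 0.055 (adjusted, edgeR). None of these was called higher on the gel, and 68.3% of all genes had the same calls, against 10.3% of the members.

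How many members pass with the hairpins, and which are not called lower on the gel, depends on how the spread is estimated. The median SD of log2 CPM over the members was 0.059 in Control, 0.18 between the hairpins and 0.056 in Soft, and a single estimate of the spread served all conditions. When only the 6 libraries of sh_PIP4K2B and Control were fitted, 0 of 58 passed 0.01 and 57 had an unadjusted p under 0.05, with adjusted p-values from 0.017 to 0.30 (edgeR). Weighting the libraries by condition (limma voom) left 26 lower with the hairpins and 10 gel-spared. Without Control replicate 1, 2 or 3, the members lower with the hairpins numbered 18, 6 and 18 and the gel-spared 10, 5 and 12 (edgeR). Without Soft replicate 1, 2 or 3, the gel-spared numbered 16, 15 and 15. A fit of only Soft and Control called some gel-spared genes lower on the gel. They were AURKB, BIRC5, BUB1, BUB1B, CKAP2L, DLGAP5, INCENP, KIFC1, MKI67, NCAPH, NDC80, RACGAP1 and TPX2 (edgeR adjusted p from 6.5e-07 to 0.0068). The other gel-spared genes did not pass as lower in that fit.

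**Figure D2:**
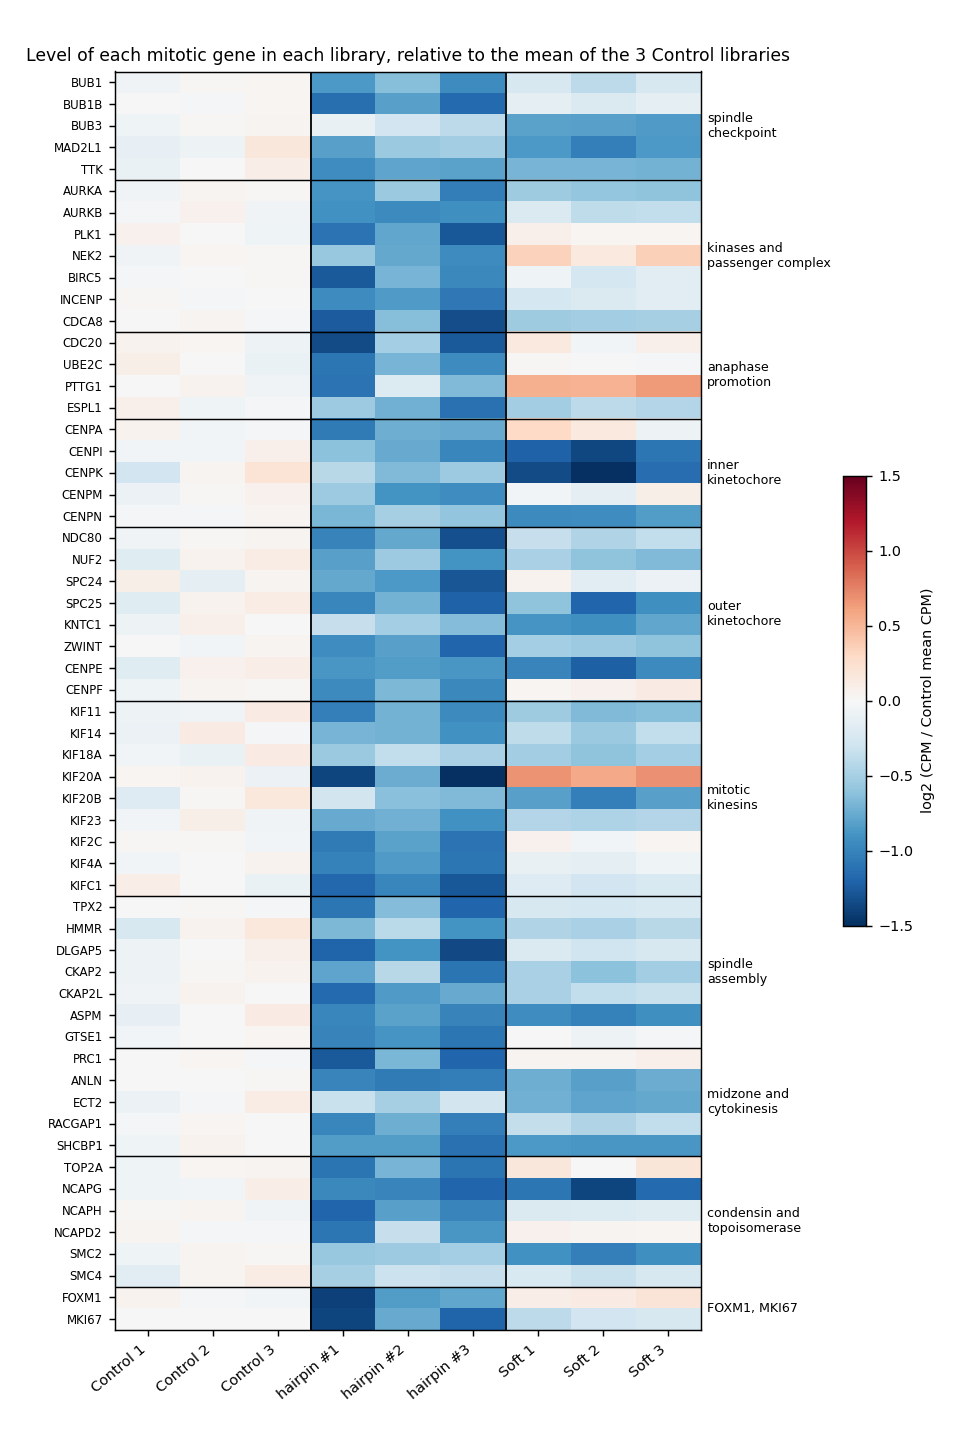
Rows are the 58 mitotic genes grouped by role, columns the 9 libraries, and colour is the log2 ratio of CPM to the mean of the 3 Control libraries. The columns of hairpins #1 and #3 are the darkest blue, hairpin #2 is paler, and the Soft columns mix pale, red and dark blue rows within the same role.

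The hairpins did not lower the genes to the same extent. Summed over the 58 members, the level was 53.2%, 63.0% and 52.3% of the Control mean with hairpins #1, #2 and #3, and 82.2%, 78.9% and 82.7% in the Soft libraries. Hairpin #3 gave the lowest level of 35 members, hairpin #1 of 19 and hairpin #2 of 4. No member was below 50% of Control with all 3 hairpins, whereas CENPI, CENPK and NCAPG were below 50% in all Soft libraries. CDKN1A, which is no member, was at 777, 773 and 744 CPM in Control, 5866, 3888 and 1117 CPM with hairpins #1, #2 and #3, and 342, 372 and 355 CPM in Soft. Its level was thus above every Control library with every hairpin and below every Control library on the gel. Only the direct test of Soft against sh_PIP4K2B passed (-3.35, SE 0.48, edgeR adjusted p = 5.6e-04).

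Most promoters of the members hold letters that this pathway is known by. RefSeq promoter windows (build GRCh38.p14, 250 bases before to 50 after the start of the gene) were found for 48 of the 58 members. The core of the cell cycle homology region was searched as TTTGAA, its reverse complement TTCAAA, and TTCGAA, which is its own reverse complement, and the box as CCAAT or ATTGG. The core was in 77.1% of the members' windows and in 16.4% of all 35116 RefSeq promoter windows. Members have a single window each, whereas the 35116 may hold several windows of a gene and were not limited to genes tested. Within 50 bases of the start it was in 64.6% of members and 5.01% of all. A CCAAT box was in 77.1% and 34.6%, at least 2 boxes in 24 of 48 members and 10.8% of all, and box and core together in 62.5% and 6.38%. A match describes the letters only and is not a measured binding site.

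Stretches from 6 members are printed because they show the same layout, a CCAAT box followed by the core shortly before the start, in genes that did and did not stay up on the gel. The capitals mark the box and the core, each line gives the last 100 bases before the start, 5′ to 3′ on the strand of the gene, and the genes were chosen for this layout after their calls were known. PLK1 (chr16:23678789-23678888, plus strand), PRC1 (chr15:90994536-90994635, minus strand) and KIF4A (chrX:70290004-70290103, plus strand) were gel-spared. KIF11 (chr10:92593030-92593129, plus strand) and ZWINT (chr10:56361260-56361359, minus strand) fell in both conditions, and KIF18A (chr11:28108157-28108256, minus strand) was called lower on the gel only. With the offset described above KIF11 and KIF18A lost their gel calls and became gel-spared, whereas ZWINT still passed as lower on the gel.
PLK1: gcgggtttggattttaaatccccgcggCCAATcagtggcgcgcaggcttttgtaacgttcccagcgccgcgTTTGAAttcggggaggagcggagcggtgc
PRC1: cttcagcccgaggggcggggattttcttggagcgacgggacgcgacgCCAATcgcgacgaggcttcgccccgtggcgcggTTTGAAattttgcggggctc
KIF4A: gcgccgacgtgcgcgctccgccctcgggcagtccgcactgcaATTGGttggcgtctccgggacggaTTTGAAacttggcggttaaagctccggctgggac
KIF11: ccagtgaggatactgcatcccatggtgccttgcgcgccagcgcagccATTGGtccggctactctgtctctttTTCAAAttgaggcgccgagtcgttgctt
ZWINT: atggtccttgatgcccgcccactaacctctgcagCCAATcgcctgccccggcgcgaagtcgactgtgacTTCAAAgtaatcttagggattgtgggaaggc
KIF18A: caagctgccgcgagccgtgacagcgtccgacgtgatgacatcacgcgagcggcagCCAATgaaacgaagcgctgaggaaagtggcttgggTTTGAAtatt

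The core was in 15 of 21 gel-spared promoters, 10 of 12 of genes lower in both conditions and 5 of 6 of genes called lower on the gel only. CCAAT boxes were in 18 of 21, 6 of 12 and 6 of 6. These counts are small and were not tested. KIF20A, with the largest difference between gel and hairpins, has 2 CCAAT boxes and no match of the core in its window. Neither motif was found for CENPE and CENPI, which fell in both conditions. The same holds for KIF2C, which was gel-spared, and for CKAP2, which was not called lower in either condition.

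**Figure D3:**
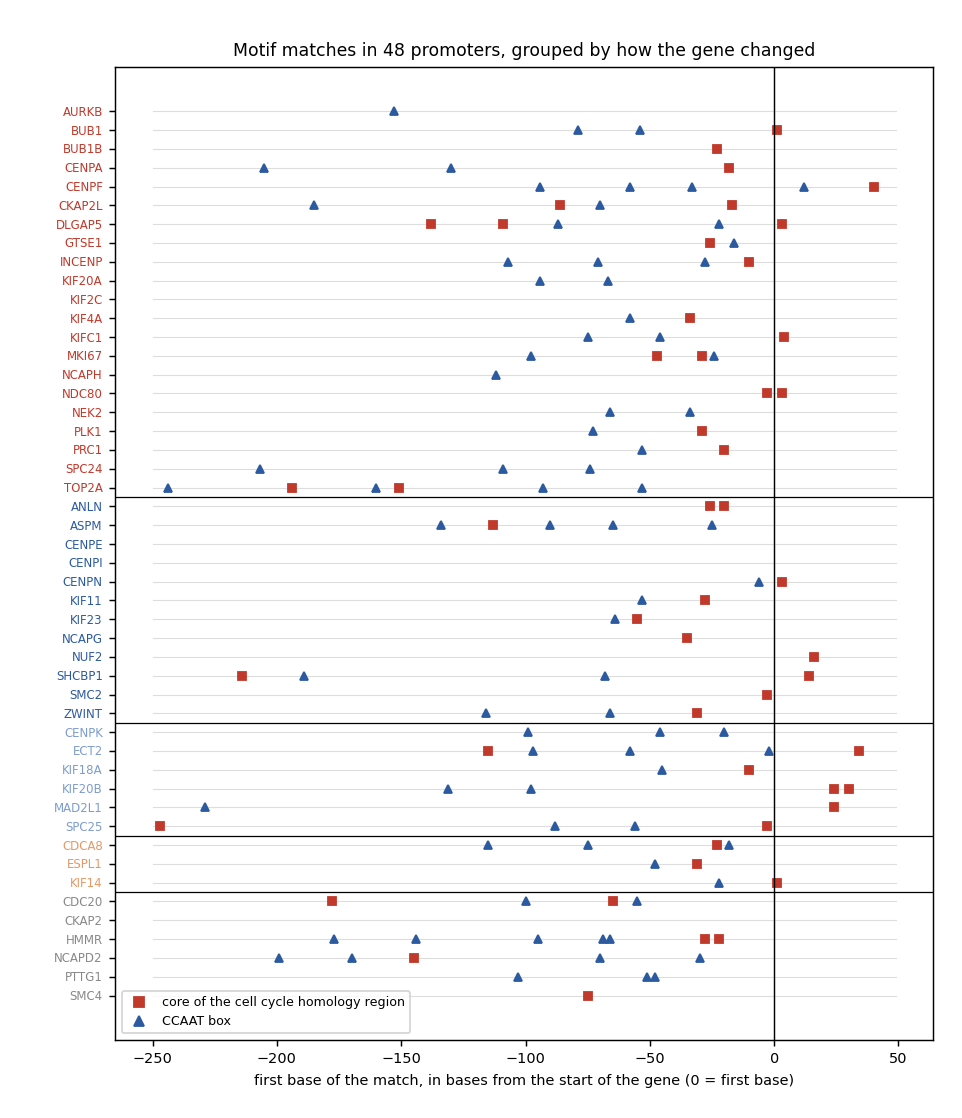
Each row is 1 of 48 promoters, grouped and coloured as in the plot of both fold changes, and symbols give the first base of each match of the core (squares) and of a CCAAT box (triangles) in bases from the start of the gene. In 31 of the 48 promoters (64.6%) a square lies within 50 bases of the start, in every group.

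The spindle checkpoint holds anaphase until every kinetochore is attached. Of its 5 genes, BUB1, BUB1B and TTK fell with the hairpins and BUB3, MAD2L1 and TTK on the gel. BUB1B (BubR1, a component of the inhibitor that blocks CDC20) was at 70.4, 68.6 and 71.8 CPM in Control, 32.05, 39.9 and 31.2 CPM with hairpins #1, #2 and #3 and 63.5, 60.7 and 64.01 CPM in Soft. The Soft libraries were all below Control but far above every hairpin library. Its log2 fold change was -1.03 (SE 0.11, edgeR adjusted p = 9.7e-04) with the hairpins and -0.16 (SE 0.11, edgeR adjusted p = 0.25) on the gel. TTK (MPS1, the kinase that starts the signal) was at 26.1, 27.96 and 30.1 CPM in Control, 14.7, 16.1 and 16.1 CPM with the hairpins and 17.3, 17.3 and 17.1 CPM in Soft, so that the Soft libraries lay just above the hairpin libraries. The log2 fold changes of TTK were -0.84 (SE 0.10, edgeR adjusted p = 0.0014) and -0.70 (SE 0.10, edgeR adjusted p = 5.9e-04). BUB3, the adaptor that carries BUB1 and BUB1B to kinetochores, had the reverse pattern, -0.26 (SE 0.11, edgeR adjusted p = 0.12) with the hairpins and -0.82 (SE 0.11, edgeR adjusted p = 2.8e-04) on the gel. With the offset the gel value of TTK was -0.25 (edgeR adjusted p = 0.083) and no longer passed.

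All 7 mitotic kinases and chromosomal passenger genes fell with the hairpins, and only AURKA fell on the gel. Of the 7, 5 were higher in Soft than in sh_PIP4K2B. INCENP, the scaffold of the passenger complex, was at 63.5, 61.5 and 62.9 CPM in Control, 32.6, 34.9 and 29.8 CPM with the hairpins and 52.3, 53.9 and 55.6 CPM in Soft, with a log2 fold change of -0.95 (SE 0.10, edgeR adjusted p = 7.1e-04) with the hairpins. AURKB, the kinase of that complex, was at 31.8, 33.7 and 31.2 CPM in Control, 17.1, 16.6 and 17.1 CPM with the hairpins and 27.7, 24.8 and 25.03 CPM in Soft and had a log2 fold change of -0.93 (SE 0.10, edgeR adjusted p = 9.4e-04). In both genes the Soft libraries lay between the others without overlap, and with the offset both passed as lower on the gel, INCENP at -0.46 (edgeR adjusted p = 0.0042) and AURKB at -0.46 (edgeR adjusted p = 0.0046). NEK2, a kinase that splits the centrosomes, was at 25.3, 26.9 and 26.6 CPM in Control, 17.7, 15.5 and 13.7 CPM with the hairpins and 33.5, 29.1 and 33.7 CPM in Soft, where every library exceeded every Control library. The gain of NEK2 on the gel did not pass the test (0.29, SE 0.12, edgeR adjusted p = 0.077). It passed with the offset (0.55, edgeR adjusted p = 0.0031), with only Soft and Control fitted (edgeR adjusted p = 0.0012) and with limma voom (adjusted p = 9.8e-04). The difference between Soft and sh_PIP4K2B did pass (1.04, SE 0.12, edgeR adjusted p = 2.1e-04). PLK1, which drives entry into mitosis and spindle assembly, had -1.04 (SE 0.13, edgeR adjusted p = 0.0014) with the hairpins and 0.05 (SE 0.13, edgeR adjusted p = 0.78) on the gel.

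Among the 4 genes that promote anaphase, UBE2C and ESPL1 fell with the hairpins, and on the gel the lowest was ESPL1, which did not pass. UBE2C, the ubiquitin-conjugating enzyme of the anaphase-promoting complex, was at 68.7, 64.8 and 60.1 CPM in Control, 30.5, 39.9 and 33.5 CPM with the hairpins and 65.1, 64.5 and 63.9 CPM in Soft, and the Soft libraries overlapped Control. Its log2 fold change was -0.90 (SE 0.12, edgeR adjusted p = 0.0018) with the hairpins. ESPL1 (separase, which cuts cohesin) was at 36.3, 32.7 and 34.1 CPM in Control, 23.5, 20.8 and 15.9 CPM with the hairpins and 23.9, 26.2 and 25.4 CPM in Soft, with -0.78 (SE 0.14, edgeR adjusted p = 0.0081) and -0.45 (SE 0.14, edgeR adjusted p = 0.028). PTTG1 (securin, the inhibitor of separase) was at 50.9, 52.5 and 48.8 CPM in Control, 23.5, 43.98 and 32.1 CPM with the hairpins and 73.4, 72.8 and 78.8 CPM in Soft. Hairpin #2 left PTTG1 close to Control, the fall did not pass (-0.61, SE 0.19, edgeR adjusted p = 0.055), and every Soft library was above every Control library (0.56, SE 0.19, edgeR adjusted p = 0.035). The inhibitor and the protease therefore lay on opposite sides of Control on the gel, neither past the threshold. CDC20, the activator of the anaphase-promoting complex, just missed the threshold with the hairpins (-0.99, SE 0.20, edgeR adjusted p = 0.011) and was higher in Soft than in sh_PIP4K2B (1.05, SE 0.20, edgeR adjusted p = 0.0024), and 3.17% of its 75-base windows also occur in its pseudogene CDC20P1. Such windows were also found for BUB1B (6.84%), SPC25 (5.52%), KIF4A (4.52%) and AURKA (2.45%).

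The inner kinetochore divided by member. CENPA, the histone H3 variant that marks centromeres, was at 12.9, 12.03 and 12.3 CPM in Control, 5.94, 7.47 and 7.32 CPM with the hairpins and 15.3, 13.7 and 11.8 CPM in Soft, with log2 fold changes of -0.84 (SE 0.15, edgeR adjusted p = 0.0057) and 0.13 (SE 0.14, edgeR adjusted p = 0.47). Soft overlapped Control. The subunits CENPI, CENPK and CENPN, which sit on CENPA chromatin, had lower values on the gel than with the hairpins, a difference that passed the test for CENPK alone and for none with the offset. CENPI was at 18.3, 18.5 and 20.01 CPM in Control, 12.4, 11.2 and 9.59 CPM with the hairpins and 8.16, 7.38 and 8.94 CPM in Soft and fell in both conditions (-0.78, SE 0.13, edgeR adjusted p = 0.0060, and on the gel -1.21, SE 0.14, edgeR adjusted p = 1.4e-04). CENPK was at 12.8, 16.1 and 18.05 CPM in Control, 11.7, 9.92 and 10.7 CPM with the hairpins and 6.16, 5.48 and 7.06 CPM in Soft. It had the lowest value of all members on the gel (-1.33, SE 0.17, edgeR adjusted p = 2.4e-04) and did not pass with the hairpins (-0.54, SE 0.16, edgeR adjusted p = 0.048). The difference between Soft and sh_PIP4K2B was -0.79 (SE 0.17, edgeR adjusted p = 0.0041), and with the offset it was -0.02 (edgeR adjusted p = 0.93). The gel value of CENPK was then -0.73 (edgeR adjusted p = 0.0017), and CENPI was the lowest member at -0.94. CENPN, which binds CENPA nucleosomes directly, was at 61.8, 61.8 and 64.5 CPM in Control, 39.1, 44.5 and 41.6 CPM with the hairpins and 32.5, 33.00 and 35.1 CPM in Soft and fell in both (-0.59, SE 0.09, edgeR adjusted p = 0.0042, and on the gel -0.90, SE 0.09, edgeR adjusted p = 9.8e-05), but 16.7% of its 75-base windows occur in another gene, so its reads may be shared. CENPM, another subunit of this layer, was gel-spared as CENPA was.

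The outer kinetochore, which grips microtubule ends, had 6 of 8 genes lower with the hairpins and 5 of 8 lower on the gel. CENPF, a large coiled-coil protein of the outer plate, was at 124, 133 and 131 CPM in Control, 66.8, 81.02 and 66.3 CPM with the hairpins and 132, 135 and 141 CPM in Soft. Its log2 fold change was -0.86 (SE 0.11, edgeR adjusted p = 0.0015) with the hairpins and 0.07 (SE 0.11, edgeR adjusted p = 0.59) on the gel. CENPE, the kinesin that carries chromosomes to the spindle equator, was at 70.5, 83.3 and 85.9 CPM in Control, 43.6, 44.7 and 43.5 CPM with the hairpins and 40.4, 34.1 and 41.1 CPM in Soft. CENPE fell in both conditions, -0.86 (SE 0.12, edgeR adjusted p = 0.0018) and -1.05 (SE 0.12, edgeR adjusted p = 1.2e-04). Between CENPF and CENPE the log2 fold changes thus differed by 0.01 with the hairpins and by 1.13 on the gel. With the offset CENPE on the gel was at -0.55 (edgeR adjusted p = 0.0035). ZWINT, an adaptor of the outer plate, was at 66.2, 64.7 and 68.2 CPM in Control, 34.9, 37.8 and 29.1 CPM with the hairpins and 46.6, 45.6 and 43.9 CPM in Soft and fell in both (-0.97, SE 0.11, edgeR adjusted p = 0.0012, and on the gel -0.55, SE 0.11, edgeR adjusted p = 0.0033).

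The NDC80 complex, the main microtubule coupler, has 4 subunits that work in equal numbers, and on the gel their RNAs had unequal values. Differences between genes of a complex, here and below, were not tested. With the hairpins the log2 fold changes were -1.01 for NDC80, -0.75 for NUF2, -0.95 for SPC24 and -0.95 for SPC25. On the gel they were -0.39, -0.58, -0.06 and -0.88, of which those of NUF2 and SPC25 passed, though neither did with the offset, at -0.21 (edgeR adjusted p = 0.18) and -0.56 (edgeR adjusted p = 0.024). SPC24 and SPC25 therefore had the same value with the hairpins and differed by 0.82 on the gel. SPC24 is the lowest of all members per transcript length, at 2.74 CPM per kb in Control, where the median member is at 19.1 and UBE2C, the highest, at 83.1 CPM per kb.

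Of the 9 mitotic kinesins, 7 fell with the hairpins, 4 on the gel, and 4 were higher in Soft than in sh_PIP4K2B. KIF20A, which moves the passenger complex to the midzone for cytokinesis, was at 92.8, 94.5 and 85.4 CPM in Control, 35.04, 54.4 and 30.3 CPM with the hairpins and 145, 135 and 146 CPM in Soft. Hairpin #2 was the weakest, and the 3 conditions did not overlap. KIF20A fell by the most with the hairpins (-1.19, SE 0.19, edgeR adjusted p = 0.0045) and stood highest on the gel, where it did not pass (0.64, SE 0.19, edgeR adjusted p = 0.020). Its difference between Soft and sh_PIP4K2B was 1.83 (SE 0.20, edgeR adjusted p = 1.3e-04). KIF4A, a chromosome-bound kinesin, was at 56.3, 57.4 and 59.9 CPM in Control, 28.6, 31.98 and 27.2 CPM with the hairpins and 53.7, 52.05 and 55.3 CPM in Soft (-0.98, SE 0.10, edgeR adjusted p = 6.9e-04 with the hairpins). KIFC1, which slides microtubules toward the poles, was at 73.9, 68.99 and 64.4 CPM in Control, 30.5, 34.97 and 28.5 CPM with the hairpins and 60.6, 56.5 and 59.1 CPM in Soft (-1.14, SE 0.11, edgeR adjusted p = 6.8e-04 with the hairpins). The motors lower on the gel were KIF11 (Eg5, which pushes the poles apart), KIF18A (which limits microtubule length), KIF20B and KIF23, at -0.61, -0.55, -0.88 and -0.45. With the offset none of these 4 passed on the gel, at -0.30 (edgeR adjusted p = 0.072), -0.08 (edgeR adjusted p = 0.61), -0.35 (edgeR adjusted p = 0.024) and -0.22 (edgeR adjusted p = 0.084) in the same order, and KIFC1 passed as lower at -0.42 (edgeR adjusted p = 0.0062). KIF2C, a microtubule depolymerase, was at -0.99 with the hairpins and 0.02 on the gel.

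**Figure D4:**
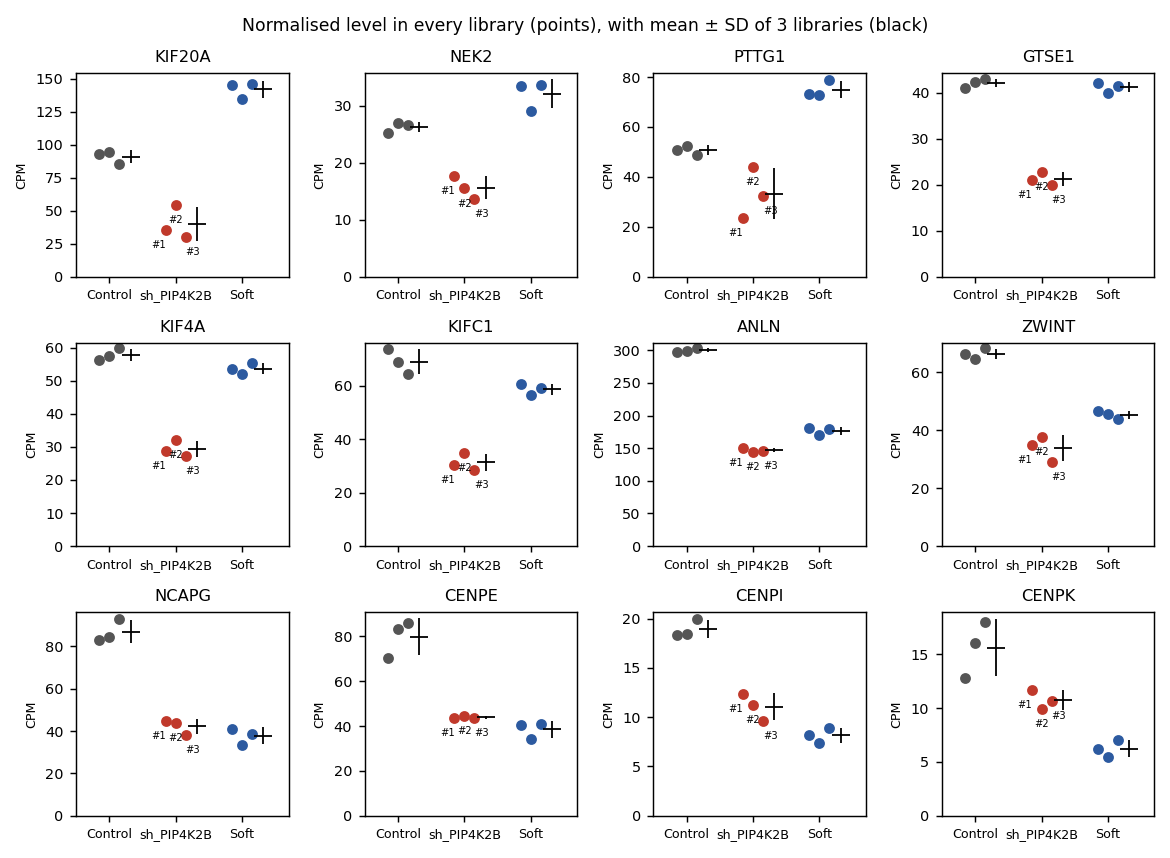
Points are the CPM of 12 mitotic genes in each of the 9 libraries, with the hairpin numbers beside the red points, and the black marks give the mean ± SD of the 3 libraries of a condition. On the gel KIF20A, NEK2 and PTTG1 lie above Control and GTSE1 overlaps it, whereas NCAPG overlaps the hairpin libraries and CENPE, CENPI and CENPK lie below all of them.

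For spindle assembly, 5 of 7 genes fell with the hairpins and only ASPM on the gel. GTSE1, a microtubule-binding protein, was at 41.1, 42.4 and 42.9 CPM in Control, 21.1, 22.8 and 19.8 CPM with the hairpins and 42.00, 39.95 and 41.5 CPM in Soft, with -0.99 (SE 0.10, edgeR adjusted p = 6.8e-04) and -0.03 (SE 0.10, edgeR adjusted p = 0.79). DLGAP5 (HURP, which stabilises kinetochore fibres) was at 62.7, 65.5 and 69.3 CPM in Control, 28.5, 35.4 and 25.9 CPM with the hairpins and 56.5, 53.5 and 55.9 CPM in Soft, with -1.14 (SE 0.13, edgeR adjusted p = 9.7e-04) with the hairpins. Both had hairpin libraries far below the rest, and GTSE1 overlapped between Soft and Control. ASPM, which organises the spindle poles, was at 81.1, 87.6 and 96.2 CPM in Control, 44.9, 50.6 and 44.2 CPM with the hairpins and 46.4, 43.7 and 46.5 CPM in Soft, and its hairpin and Soft libraries overlapped. Its log2 fold changes were -0.92 (SE 0.10, edgeR adjusted p = 0.0011) and -0.95 (SE 0.10, edgeR adjusted p = 1.2e-04). TPX2, the activator of AURKA, was gel-spared (-0.95 and -0.24) while AURKA itself fell in both (-0.82 and -0.57), with a gel value of -0.40 (edgeR adjusted p = 0.020) under the offset. The gel value of ASPM was then -0.52 (edgeR adjusted p = 0.0065).

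The midzone and cytokinesis genes had 4 of 5 lower with the hairpins and 3 of 5 on the gel. ANLN (anillin, the scaffold of the contractile ring) was at 298, 298 and 304 CPM in Control, 150.5, 144 and 146 CPM with the hairpins and 180.4, 169.9 and 179 CPM in Soft. The 3 hairpin libraries lay close together, and ANLN fell in both conditions (-1.03, SE 0.09, edgeR adjusted p = 5.0e-04, and on the gel -0.77, SE 0.09, edgeR adjusted p = 1.6e-04). RACGAP1, a subunit of centralspindlin, was at 115, 119 and 116 CPM in Control, 59.1, 70.1 and 57.2 CPM with the hairpins and 91.1, 85.3 and 90.2 CPM in Soft, and its gel value missed the threshold narrowly (-0.91, SE 0.10, edgeR adjusted p = 0.0011, and on the gel -0.39, SE 0.10, edgeR adjusted p = 0.012). KIF23, the other subunit of centralspindlin, passed on the gel at -0.45, so the calls of the partners differ while their values are close. With the offset KIF23 and ECT2 did not pass on the gel, ECT2 being at -0.31 (edgeR adjusted p = 0.013), and ANLN fell by less there, at -0.48 (edgeR adjusted p = 0.0019). PRC1, which bundles the midzone microtubules, had -1.02 and 0.05, but 84.5% of its 75-base windows also occur in another annotated gene, and its reads may be shared. ECT2, which activates RhoA at the division plane, was the least changed of these genes with the hairpins (-0.37, SE 0.10, edgeR adjusted p = 0.037) and fell on the gel (-0.76, SE 0.10, edgeR adjusted p = 3.6e-04).

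Condensin I folds chromosomes for mitosis, with SMC2 and SMC4 as its motor pair and NCAPD2, NCAPG and NCAPH as its other subunits. NCAPH was at 40.7, 41.2 and 38.6 CPM in Control, 17.7, 22.8 and 20.2 CPM with the hairpins and 34.5, 34.8 and 35.5 CPM in Soft. NCAPG was at 83.3, 84.7 and 93.2 CPM in Control, 44.5, 43.9 and 38.01 CPM with the hairpins and 41.1, 33.4 and 38.8 CPM in Soft. The hairpins lowered both by a similar amount, to a log2 fold change of -0.99 (SE 0.11, edgeR adjusted p = 0.0011) for NCAPH and -1.05 (SE 0.12, edgeR adjusted p = 9.8e-04) for NCAPG. On the gel NCAPH lay below Control in every Soft library without passing (-0.20, SE 0.11, edgeR adjusted p = 0.17). NCAPG fell there (-1.20, SE 0.12, edgeR adjusted p = 6.6e-05), a difference of 1.00 between the partners. With only Soft and Control fitted NCAPH passed as lower too (edgeR adjusted p = 0.0020). SMC2 fell further on the gel (-0.95) than with the hairpins (-0.54), and this difference passed the test (-0.41, SE 0.09, edgeR adjusted p = 0.0047). With the offset the direction turned, to 0.16 (edgeR adjusted p = 0.19), and the call was lost without Soft replicate 1, 2 or 3. It passed in 6 of 19 alternatives, and not with limma voom (adjusted p = 0.059) or only the 2 conditions fitted (edgeR adjusted p = 0.030). SMC4 passed neither (-0.39 and -0.27). TOP2A, the topoisomerase that untangles sister chromatids, was gel-spared, with -0.95 (SE 0.13, edgeR adjusted p = 0.0022) with the hairpins and 0.12 (SE 0.13, edgeR adjusted p = 0.47) on the gel.

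FOXM1, the transcription factor that drives much of this module, was at 156, 148 and 145 CPM in Control, 56.9, 83.96 and 87.3 CPM with the hairpins and 160.3, 163 and 171 CPM in Soft. Hairpin #1 gave its lowest level, and every Soft library was above every Control library. Its log2 fold change was -0.98 (SE 0.15, edgeR adjusted p = 0.0038) with the hairpins, 0.14 (SE 0.15, edgeR adjusted p = 0.49) on the gel and 1.12 (SE 0.15, edgeR adjusted p = 4.4e-04) between Soft and sh_PIP4K2B. MKI67, the proliferation marker Ki-67, was at 339, 337 and 335 CPM in Control, 129.98, 199 and 146 CPM with the hairpins and 257, 277 and 286 CPM in Soft. It fell with the hairpins (-1.09, SE 0.15, edgeR adjusted p = 0.0024) and lay below Control in every Soft library without passing (-0.30, SE 0.15, edgeR adjusted p = 0.13).

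Other mitotic genes, from lists drawn up with results of these libraries known, were tested in the same fit. Of 112, 40 were lower with the hairpins (35.7%, against 2.77% of all genes) and 2 higher (1.79%, against 2.76%). On the gel 39 were lower (34.8%, against 14.8%) and 9 higher (8.04%, against 15.8%). In Soft against sh_PIP4K2B 26 were higher (23.2%, against 14.5%) and 18 lower (16.1%, close to the 15.5% of all genes). Their median log2 fold changes were -0.31, -0.35 and -0.02. Among 27 further kinetochore and centromere genes, 10 were lower with the hairpins (37%) and 14 on the gel (51.9%). HJURP, the chaperone that deposits CENPA, was the lowest with the hairpins at -1.16 and CENPC the highest at 0.38, and on the gel ZWILCH was the lowest at -1.21 and PMF1 the highest at 0.68. Between Soft and sh_PIP4K2B the extremes were ITGB3BP at -0.91 and CENPW at 1.15.

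Among 30 further spindle, centrosome and cytokinesis genes, 17 were lower with the hairpins (56.7%), 11 on the gel (36.7%), and 15 were higher in Soft than in sh_PIP4K2B (50%). KIF18B was the lowest with the hairpins at -1.25 and KIF2A the highest at 0.40. The lowest on the gel was HAUS6, a subunit of augmin, which nucleates microtubules inside the spindle, at -1.39. The highest there was NUMA1, which anchors the spindle poles, at 1.41, and the extremes between Soft and sh_PIP4K2B were HAUS3 at -1.46 and HAUS4 at 1.41.

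Of 18 condensin II and cohesin genes, 4 were lower (22.2%) and 1 higher with the hairpins, and 5 lower (27.8%) and 1 higher on the gel. CDCA5 (sororin, which protects cohesion) was the lowest with the hairpins at -1.09 and ESCO1 the highest at 0.92, which did not pass, while the gene that rose was the cohesin loader NIPBL (0.61, SE 0.11, edgeR adjusted p = 0.0060). On the gel ESCO2 was the lowest at -1.35 and MAU2 the highest at 0.77, and between Soft and sh_PIP4K2B the extremes were ESCO1 at -0.84 and SMC1A at 0.52. The 18 subunits and partners of the anaphase-promoting complex had 2 lower (11.1%) and 1 higher with the hairpins and a median of -0.03, and 6 lower (33.3%) and 1 higher on the gel. FBXO5 (EMI1, its inhibitor) was the lowest in both conditions, at -0.77 and -1.04, and ANAPC16 the highest, at 0.49 and 0.57, while CDC27 at -0.79 and FZR1 at 0.43 were the extremes between Soft and sh_PIP4K2B.

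Of 19 genes for MuvB, DREAM and cyclin B-CDK1, 7 were lower with the hairpins (36.8%) and 6 were higher in Soft than in sh_PIP4K2B (31.6%). On the gel 3 were lower and 3 higher, 15.8% each way and close to the shares of all genes. MYBL2, the partner of MuvB, was the lowest with the hairpins (-1.17, SE 0.10, edgeR adjusted p = 4.2e-04) and also fell on the gel (-0.58, SE 0.09, edgeR adjusted p = 0.0010). CDKN1A (p21, an inhibitor of cyclin-dependent kinases) had the highest hairpin value of the list at 2.24 (SE 0.46, edgeR adjusted p = 0.012) and the lowest value on the gel at -1.10 (SE 0.45, edgeR adjusted p = 0.068), neither of which passed, and it was also the lowest in Soft against sh_PIP4K2B. CDC25B, a phosphatase that activates CDK1, was the highest on the gel at 0.83 and between Soft and sh_PIP4K2B at 1.44. CCNB1 and CCNB2, the cyclins of mitotic CDK1, were at -0.01 and 0.35 on the gel, whereas CDK1 was at -0.78 and passed the test as lower; these 3 were named after their values were seen.

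Replication genes, which are switched on earlier in the cycle by E2F factors, gave a comparison with another phase. Of 39, 25 were lower with the hairpins (64.1%) and 30 on the gel (76.9%), with medians of -0.71 and -0.77. In Soft against sh_PIP4K2B 4 were higher and 4 lower (10.3% each), below the shares of all genes, with a median of 0.03. CDC6, which loads the replicative helicase, was the lowest in both conditions at -1.19 and -1.86. PCNA was the highest with the hairpins at 0.15 and the lowest between Soft and sh_PIP4K2B at -1.04, and RPA3 was the highest on the gel at 0.26 and between Soft and sh_PIP4K2B at 0.68. The mitotic members and the replication genes were thus both lower with the hairpins, and their medians on the gel were -0.39 and -0.77. That difference between the lists was not tested. Within the members, the 30 on the G2/M list of the Seurat package and the 28 on neither of its phase lists had medians of -0.88 and -0.92 with the hairpins and -0.31 and -0.44 on the gel.

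GC content of the transcript moved with these differences. The median GC content was 47.2% in gel-spared genes, 39.2% in genes lower in both conditions and 37.4% in genes called lower on the gel only. Over the 58 members Spearman's rho between GC content and log2 fold change was -0.48 with the hairpins, 0.64 on the gel and 0.67 for Soft against sh_PIP4K2B. Over 12647 genes with a known transcript it was -0.15, 0.32 and 0.42, so that the relation was not particular to mitotic genes. These are descriptions across genes measured in the same libraries, not across independent samples, and the part of GC content in the results was not tested.

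With the offset, 52 members were lower with the hairpins, 17 lower on the gel and 41 higher in Soft than in sh_PIP4K2B, and 32 were gel-spared. Of these 32, 23 were gel-spared without the offset. AURKB, INCENP, CENPM and KIFC1 left the group, and TTK, NUF2, KIF11, KIF14, KIF18A, KIF23, HMMR, CKAP2 and SMC4 entered it. The median log2 fold change on the gel went from -0.39 to -0.21, and SMC2 turned from -0.41 to 0.16 in Soft against sh_PIP4K2B. Of the 22 members lower on the gel, 13 passed with and without it. TTK, AURKA, NUF2, SPC25, KIF11, KIF18A, KIF20B, KIF23 and ECT2 no longer passed, while AURKB, INCENP, ESPL1 and KIFC1 passed as lower and NEK2 as higher. Of the 13, the falls of ANLN, ASPM, CENPE, CENPK, MAD2L1, SHCBP1 and SMC2 were more than 1.5 times smaller on the log2 scale. With the hairpins CENPM and ESPL1 no longer passed. In Soft against sh_PIP4K2B AURKB, CENPM and NCAPD2 were no longer called higher, and 14 others were, among them CENPE (-0.19 without the offset and 0.57 with it) and ASPM (-0.03 and 0.64). Of 8 pairs of partners compared, all had a smaller difference on the gel with the offset and 7 kept its direction, such as NCAPH above NCAPG by 0.71, SPC24 above SPC25 by 0.41 and CENPF above CENPE by 0.92. The exception was RACGAP1 against KIF23, which went from 0.06 to -0.04. Each of the 8 pairs set a gel-spared gene against a partner called lower on the gel without the offset. The pairs were thus picked for unlike calls and do not stand for all partners.

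**Figure D5:**
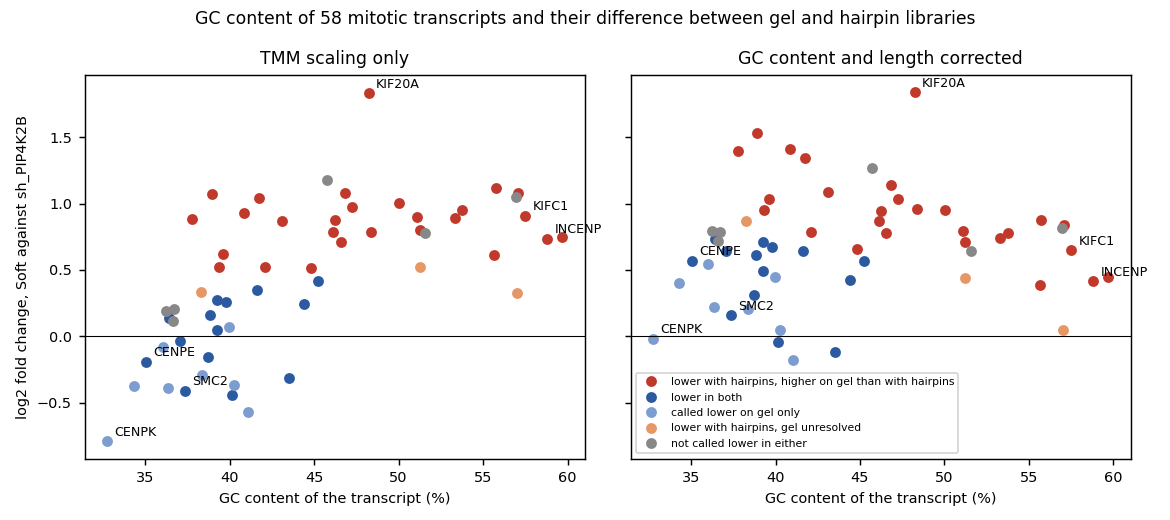
Each point is 1 of the 58 mitotic genes, with the GC content of its transcript in percent on the horizontal axis and its log2 fold change in Soft against sh_PIP4K2B on the vertical axis, without (left) and with (right) the offset for GC content and length. On the left low values gather at low GC content (rho 0.67), while on the right the slope is mostly gone (rho 0.16), KIF20A stays highest and SMC2 has moved above 0.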

How the data were processed

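The 9 libraries were stranded mRNA libraries read in pairs. Per the labels, reads were processed with STAR and Salmon against GRCh38/hg38, and the annotation is not given in the sources used here. The authors deposited estimated counts per gene, neither scaled nor pooled; 12.3% of the values were not whole, and all were rounded here. Totals of 19217336 to 24020796 put 3 counts, taken as the floor of a library, at 0.131 to 0.148 CPM.

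Genes were tested with the quasi-likelihood F test of edgeR 4.0.16 (R 4.3.3), after TMM scaling and the filterByExpr filter, with all libraries fitted together, with Benjamini-Hochberg adjustment over 13784 genes and a threshold of 0.01. SEs were taken from the F statistic. The fit was also run on simulated data in which all conditions shared a single spread per gene. That setting differs from these libraries, so it does not check the fit under their unequal spread. The members and all gene lists were chosen with earlier results of these data known. Levels in every library are given for the 2 members with the lowest p within each of 10 roles and for the 5 highest and 5 lowest members on the gel, and of every other list the extremes are named. Listed genes were matched by symbol or by an older symbol that only 1 gene has had (CENPS and CENPX could not be matched this way). Sharing of 75-base windows was counted over transcripts of the reference annotation. Alternatives were other filters, scalings, DESeq2 1.42.0, limma 3.58.1 (voom), fits of 2 conditions, a replicate block, leaving out each library, a threshold of 0.05 and, added after seeing the data, an offset for GC content and transcript length, which was known for 91.8% of genes tested.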

Additional observations from a re-analysis of the deposited data

Results flagged for a closer look

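In 5 mitotic genes every sh_PIP4K2B library was below every Control library and every Soft library above. All Soft libraries were above all Control libraries in 40.4% of all genes, and all sh_PIP4K2B libraries below them in 16.7%. The share of all genes with both was not counted, so the 5 of 58 cannot be set against it. The fall of PTTG1 with the hairpins did not pass (edgeR adjusted p = 0.055). Passing the direct test of Soft against sh_PIP4K2B in edgeR was part of the rule that picked these genes, so it is no further test of them. KIF20A, needed for cytokinesis, had the largest log2 difference at 1.83. PTTG1, the separase inhibitor, was at 1.18, FOXM1, the transcription factor of the module, at 1.12, PRC1, the midzone bundler, at 1.08, and NEK2, the centrosome kinase, at 1.04. The rise on the gel passed the threshold for none of the 5 in the main edgeR fit, with 3 of the 58 members (NEK2, PTTG1 and KIF20A) at an unadjusted p under 0.05 and with 1 member higher in DESeq2, namely KIF20A. With the offset for GC content and length NEK2 passed as higher on the gel. With only Soft and Control fitted (edgeR) NEK2, PTTG1, KIF20A and FOXM1 passed as higher, and with limma voom NEK2, PTTG1 and KIF20A. For PRC1, reads may be shared with another annotated gene.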

How the results depend on the processing

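The count of members lower with the hairpins (44) rested most on the estimate of the spread. It was 0 with only the 2 conditions compared (57 at an unadjusted p under 0.05, edgeR), 26 with limma voom and 6 to 52 when a library was left out, with 18, 6 and 18 without Control replicate 1, 2 and 3. The gel-spared count (27) was 0, 10 and 5 to 29 in the same order, with 10, 5 and 12 without Control replicate 1, 2 and 3 and 16, 15 and 15 without Soft replicate 1, 2 and 3. Members lower on the gel (22) numbered 41 with 2 conditions and 40 with limma voom. Members higher on the gel (0) numbered 2 with library-size scaling, 1 with DESeq2, 4 with 2 conditions, 3 with limma voom, 1 with the GC content and length offset, 2 at a threshold of 0.05 and 0 to 2 without a library. Members higher in Soft than in sh_PIP4K2B (30) numbered 18 with 2 conditions. Members lower there (3) numbered 5 with DESeq2, 0 with 2 conditions (8 at an unadjusted p under 0.05, edgeR), 1 with limma voom, 0 with the offset (0 at an unadjusted p under 0.05, edgeR), 7 at 0.05 and 0 to 5 without a library. The median on the gel (-0.39) was -0.28 with library-size scaling, -0.33 with the upper quartile and -0.21 with the offset, and the median in Soft against sh_PIP4K2B (0.52) was 0.71 with the offset. SMC2 in Soft against sh_PIP4K2B reversed to 0.16 with the offset. No member rose with the hairpins under any alternative run.

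Library-size scaling put the median of all genes at 0.14 with the hairpins and 0.12 on the gel, and gave 1468 genes lower and 2484 higher on the gel, where TMM gave 2036 and 2181. Same-numbered libraries did not deviate together (r from -0.10 to 0.04 over genes), which cannot show whether they were prepared together. The titles of the Control and Soft libraries carry matching numbers of the empty vector. With a replicate block 30 members were lower with the hairpins, 18 on the gel, 28 were higher in Soft than in sh_PIP4K2B and 18 were gel-spared. The causes of these changes were not tested. With 3 libraries per condition and 1 per hairpin, falls as small as that of BUB3 with the hairpins (-0.26) were not resolved.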
